A study of Mus musculus with 6 samples.

Results

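Immunoproteasome and antigen processing genes were followed in whole pancreas of mice at postnatal day 7, as 10 genes picked by symbol out of 23337 in each count table. They were the inducible catalytic subunits Psmb10, Psmb8 and Psmb9, their constitutive counterparts Psmb7, Psmb5 and Psmb6, the activator subunits Psme1 and Psme2, the peptide transporter subunit Tap1 and the class I light chain B2m. All 10 were present in all 6 tables and all 10 passed the filter on low counts that left 13017 genes. The genes were chosen with CPM (counts scaled by library size) of this same comparison of mutant with control known, so their values are given as a description and without p-values. Mutant mice (n = 3 libraries) carried Ptf1a cre/+ together with CAG-loxP-STOP-loxP-Prox1-LacZ, a CAG-driven transgene that is silent until Cre excises its stop cassette and then makes Prox1 and LacZ, here in cells of the Ptf1a lineage. Control mice (n = 3 libraries) carried Ptf1a cre/+ alone, so that the Cre insertion at Ptf1a was shared by both groups, and all 6 samples were of the strain NMRI. In the design text the mutant samples are single pancreata and the control samples are pools, while individual organs are named for all samples in the extraction notes, so that pooling and genotype cannot be told apart. Nothing in the labels says which animals shared a litter or a day. The p-values set the difference between groups against the spread between libraries within groups. If the controls are pools, their spread is not that between single animals.

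The proteasome is a barrel-shaped protease that degrades ubiquitin-tagged proteins, and its proteolytic activity resides in 3 subunits of the inner rings. Under interferon gamma, and constantly in many immune cells, these are replaced during assembly by the inducible subunits Psmb8, Psmb9 and Psmb10, which gives the immunoproteasome. The peptides it makes are carried into the endoplasmic reticulum by the transporter of Tap1 and Tap2 and loaded onto major histocompatibility complex (MHC) class I heavy chains, whose light chain is B2m. The catalytic role of Psmb7 and Psmb10 is trypsin-like, that of Psmb5 and Psmb8 chymotrypsin-like, and that of Psmb6 caspase-like. Psme1 and Psme2 form the PA28 cap that opens the barrel.

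Total counts were between 7729161 and 9957737 in mutant libraries and between 7304727 and 10773223 in control libraries, so that 1 count was worth 0.0952 to 0.116 CPM in mutants and 0.0961 to 0.150 CPM in controls. Prox1 was at 25.5, 31.3 and 30.9 CPM in mutants and at 10.8, 7.84 and 9.13 CPM in controls, and its log2 fold change was 1.67 ± 0.15 (SE, n = 3 per group; edgeR adjusted p = 0.000239). All 12 acinar markers were detected, with a summed level of 307708 to 363565 CPM in mutants and 362755 to 401337 CPM in controls. Of the 12, edgeR called 1 lower, the lipase gene Cel, where 1.51% of all genes tested were called lower. Log2 fold changes were below 0 in 10 of the 12. An unadjusted p under 0.05 in edgeR was found for 4 (12.8% of all genes tested), and DESeq2 called 3 (2.58% of all genes it tested). Control 1 was the only library with Xist in number (7110 counts, against at most 4 in the others). Mutant 2 stood apart in pan-leukocyte markers: the sum of 7 such markers was 57.7, 226 and 44.3 CPM in mutants 1 to 3 and 54.3, 82.1 and 92.2 CPM in controls 1 to 3. In whole tissue, fewer cells of a type and less RNA per cell cannot be told apart.

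The promoters of Psmb10 and of Ctrl, the gene next to it, are shown because these neighbours were both lower in mutants. Those of Psmb8 and B2m are shown from among the 6 described genes that were highest in mutant 2. The sequences are RefSeq's on GRCm38.p6, from 250 bases before to 50 bases after the start, 5′ to 3′ on the gene's strand. They are the reference strain's, not NMRI's. Capitals mark a match to CAAGGTCA (the Nr5a2 site, Nr5a2 being a nuclear receptor of acinar cells) in Psmb10, to TTCNNNGAA (the GAS element of interferon-responsive promoters) in Psmb8 and to a pair of GAAA runs 2 bases apart (the interferon-stimulated response element, ISRE) in B2m, searched on both strands. Ctrl held none of these 3 motifs.
Psmb10 (chr8:105938343-105938642, minus strand): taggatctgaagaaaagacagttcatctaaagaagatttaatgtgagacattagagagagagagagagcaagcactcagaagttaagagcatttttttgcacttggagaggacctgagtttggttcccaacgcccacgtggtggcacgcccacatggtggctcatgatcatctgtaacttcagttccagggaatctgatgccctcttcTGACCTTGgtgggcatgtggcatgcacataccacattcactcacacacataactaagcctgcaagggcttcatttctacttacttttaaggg
Ctrl (chr8:105933813-105934112, minus strand): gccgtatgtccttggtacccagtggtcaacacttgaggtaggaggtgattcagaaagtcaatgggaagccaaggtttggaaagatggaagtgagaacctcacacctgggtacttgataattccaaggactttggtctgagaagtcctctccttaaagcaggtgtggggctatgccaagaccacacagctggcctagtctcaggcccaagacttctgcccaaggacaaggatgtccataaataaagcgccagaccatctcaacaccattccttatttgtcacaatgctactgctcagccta
Psmb8 (chr17:34197945-34198244, plus strand): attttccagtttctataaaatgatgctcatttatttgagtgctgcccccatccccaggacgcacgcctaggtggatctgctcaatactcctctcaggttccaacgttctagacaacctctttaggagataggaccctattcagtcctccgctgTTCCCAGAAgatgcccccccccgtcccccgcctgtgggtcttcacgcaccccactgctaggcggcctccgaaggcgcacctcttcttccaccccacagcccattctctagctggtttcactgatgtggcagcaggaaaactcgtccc
B2m (chr2:122147437-122147736, plus strand): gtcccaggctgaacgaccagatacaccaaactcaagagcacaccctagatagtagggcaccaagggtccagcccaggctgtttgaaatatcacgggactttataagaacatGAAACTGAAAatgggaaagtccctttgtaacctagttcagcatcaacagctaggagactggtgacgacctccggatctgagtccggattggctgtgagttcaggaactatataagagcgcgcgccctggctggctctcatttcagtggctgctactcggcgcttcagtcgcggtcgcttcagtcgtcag
Among 27025 promoters of this length, the Nr5a2 site occurred in 1.53%, the GAS element in 8.47% and the ISRE in 3.49%. Of the 9 described genes with a promoter entry, Psmb10 alone held the Nr5a2 site, Psmb8 alone the GAS element, and Psme1 and B2m the ISRE. Psmb9, Psme2 and Tap1, which were also highest in mutant 2, held neither the GAS element nor the ISRE. CCAAT, the NF-Y box, was found in Psmb9, Tap1 and B2m and in 37.9% of all promoters. TGACNNNGC, the antioxidant response element through which Nfe2l1 raises constitutive subunits, was found in Psmb5 and Psmb6 and in 12.5% of all promoters. TTCCCA, the core of the RBPJ box, was found in 6 of the 9, Psmb10 and Psmb8 among them, as well as in Ctrl and in 25.5% of all promoters, and in Psmb8 it overlaps the GAS element. A match is a string of letters and not a site shown to be bound.

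Psmb10 was the gene of the 10 that differed most. It was at 9.71, 14.3 and 8.78 CPM in mutants 1 to 3 and at 102, 85.1 and 80.1 CPM in controls 1 to 3. The groups were far apart, and the highest mutant value was in mutant 2. The means were 10.9 ± 2.94 CPM in mutants and 89.0 ± 11.4 CPM in controls (SD, n = 3), with a log2 fold change of -3.03 ± 0.18 (SE), or 8.18-fold lower in mutants. It rested on 88 to 123 counts per mutant library and 677 to 833 per control library. None of the 1792 stretches of 50 bases in its transcripts occurred in transcripts of another gene.

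Psmb7, the constitutive counterpart of Psmb10, was at 46.7, 45.4 and 39.8 CPM in mutants and at 52.6, 45.0 and 43.2 CPM in controls. The groups overlapped, and the log2 fold change was -0.09 ± 0.11. With library totals alone as the scaling its value was 0.08. The ratio of Psmb10 to Psmb7 per kilobase of mRNA does not depend on scaling. On the log2 scale it was -2.44, -1.85 and -2.36 in mutants and 0.78, 0.74 and 0.71 in controls. In controls Psmb10 was therefore above Psmb7 by an almost constant factor, and in mutants it was below Psmb7 in every library, with a difference of -2.96 between the group means. Psmb10 made up 17.9 ± 3.39% of this pair in mutants and 62.6 ± 0.514% in controls (SD, n = 3). The summed level of the pair was 46.2 ± 4.64 CPM per kilobase in mutants and 108 ± 13.0 in controls.

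Psmb8, unlike Psmb10, had overlapping groups. It was at 3.14, 14.5 and 2.70 CPM in mutants and at 2.71, 3.87 and 5.77 CPM in controls. Mutant 2 was above every other library, and mutants 1 and 3 lay within or below the range of controls. The log2 fold change was 0.65 ± 0.59, and it was -0.52 without mutant 2. Its constitutive counterpart Psmb5 was at 7.05, 7.43 and 9.38 CPM in mutants and at 11.3, 9.06 and 10 CPM in controls, with a log2 fold change of -0.34 ± 0.17 and groups that overlapped. Counts of Psmb5 are uncertain, because 54.1% of its 50-base stretches also occur in transcripts of other genes, chiefly Gm3375, Mir686 and the pseudogene Psmb5-ps. Psmb8 made up 19.8%, 51.9% and 13.7% of its pair with Psmb5 in mutants and 11.7%, 19.1% and 24.2% in controls, per kilobase of mRNA, so that the groups overlapped.

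Psmb9 was the least abundant inducible subunit, with 2.76, 5.45 and 1.70 CPM in mutants and 2.11, 2.98 and 2.69 CPM in controls. These values rest on 17 to 47 counts in mutants and 14 to 28 in controls. The log2 fold change was 0.32 ± 0.40, and -0.22 without mutant 2. Its counterpart Psmb6 was at 60.6, 61.0 and 62.7 CPM in mutants and at 74.0, 69.7 and 57.5 CPM in controls (log2 fold change -0.12 ± 0.11, or 0.05 with library totals alone). Psmb9 made up 2.62%, 5.01% and 1.57% of this pair in mutants and 1.65%, 2.46% and 2.69% in controls. Mutant 2 was again the highest, and the other values overlapped.

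**Figure D1:**
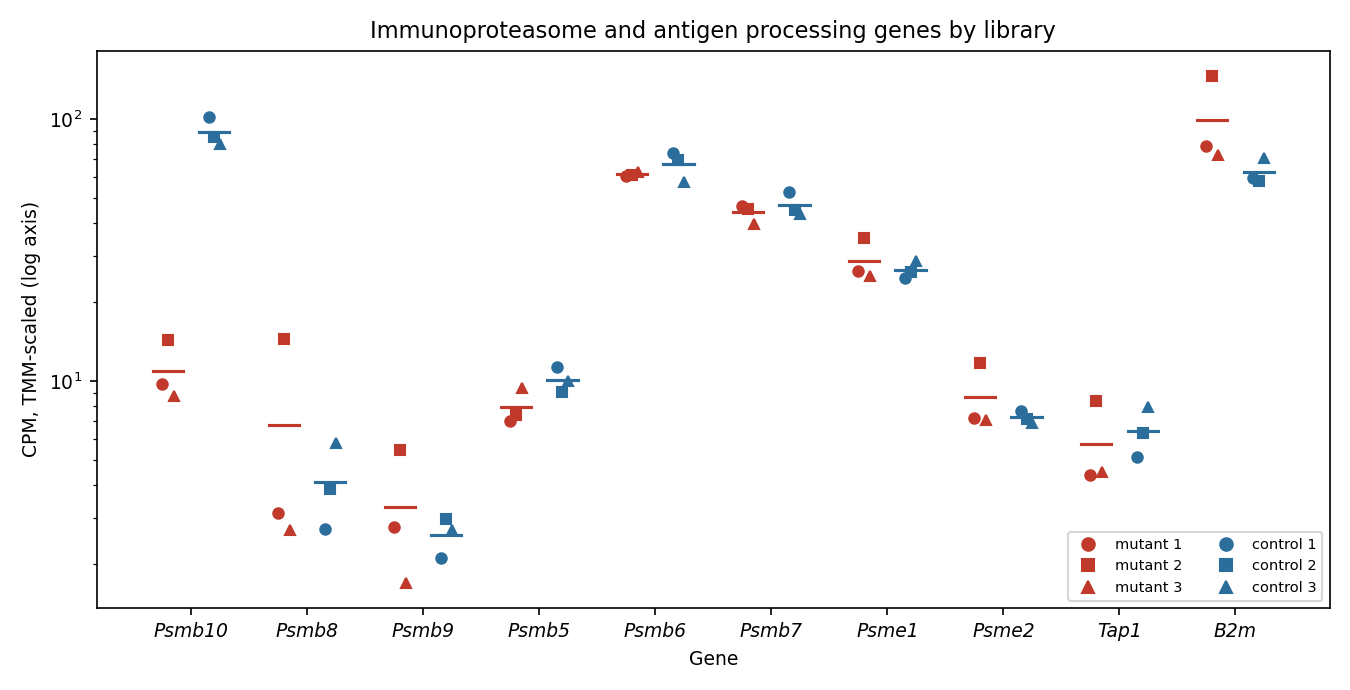
CPM of each of the 10 genes on a log axis, with mutant libraries in red on the left and control libraries in blue on the right of each gene; symbols give the replicate number and bars the group mean. Psmb10 is the gene whose groups stand far apart, with 8.78 to 14.3 CPM in mutants and 80.1 to 102 CPM in controls, and mutant 2 (red square) is the highest library of Psmb8, Psmb9, Psme1, Psme2, Tap1 and B2m.

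Per kilobase of mRNA, Psmb10 was the inducible subunit with the highest level in both groups, and its place among the 10 genes differed between the groups. In controls its mean level per kilobase was 67.9 ± 8.68 CPM, against 2.53 ± 0.949 for Psmb8 and 1.92 ± 0.331 for Psmb9 (SD, n = 3). Psmb6 was at 84.0 ± 10.7, B2m at 73.0 ± 8.25 and Psmb10 at 67.9, and the ranges of these 3 neighbours in the order overlapped. Within each control Psmb6 was above Psmb10, at 92.7, 87.4 and 72.0 against 77.6, 64.9 and 61.1 CPM per kilobase. Below these 3 genes came Psmb7 at 40.5 ± 4.30, Psme1 at 23.8 ± 1.77, Psmb5 at 11.2 ± 1.24 and Psme2 at 7.54 ± 0.395 CPM per kilobase. Psmb8, Tap1 (2.19 ± 0.487) and Psmb9 were at the low end and overlapped one another. In mutants B2m was first at 115 ± 47.1 and Psmb6 second at 77.0 ± 1.41, followed by Psmb7 at 37.9 ± 3.13 and Psme1 at 25.9 ± 4.98 CPM per kilobase. Psmb10 took the seventh place there at 8.33 ± 2.24, next to Psme2 at 9.02 ± 2.74 and Psmb5 at 8.85 ± 1.40, with overlapping ranges. Within each mutant Psme2 was above Psmb10, at 7.52, 12.2 and 7.37 against 7.41, 10.9 and 6.70 CPM per kilobase. Psmb8 (4.16 ± 4.11), Psmb9 (2.44 ± 1.43) and Tap1 (1.94 ± 0.766) came last. The length used was that of the longest coding transcript, and the order of genes depends on it. Without division by length, Psmb10 was above Psmb6 in each control, at 102, 85.1 and 80.1 against 74.0, 69.7 and 57.5 CPM. It was likewise above Psme2 in each mutant, at 9.71, 14.3 and 8.78 against 7.24, 11.7 and 7.09 CPM.

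**Figure D2:**
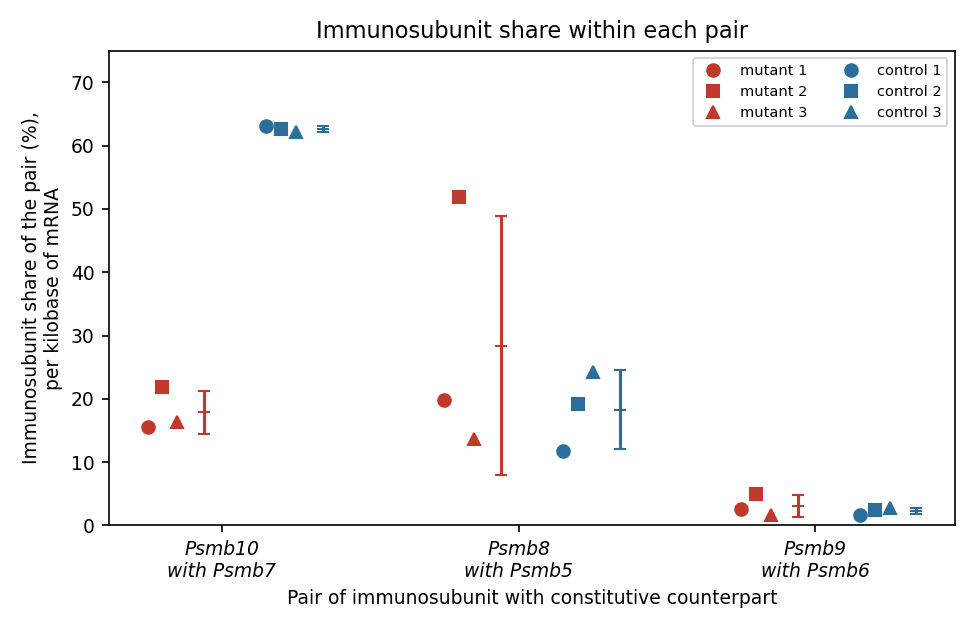
Share of the inducible subunit in its pair with the constitutive counterpart, in percent per kilobase of mRNA, for each mutant library (red, left) and control library (blue, right); bars give the mean ± SD of 3 libraries. The share of Psmb10 is 15.6% to 21.8% in mutants and 62.1% to 63.1% in controls, whereas the groups overlap for Psmb8 and Psmb9.

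The groups overlapped in the activator genes Psme1 and Psme2. Psme1 was at 26.2, 35.2 and 25.1 CPM in mutants and at 24.8, 26.0 and 28.6 CPM in controls, with a log2 fold change of 0.11 ± 0.14. Psme2 was at 7.24, 11.7 and 7.09 CPM in mutants and at 7.67, 7.18 and 6.92 CPM in controls, with a log2 fold change of 0.25 ± 0.21. Both were highest in mutant 2, and without mutant 2 the values were -0.04 for Psme1 and -0.01 for Psme2. Of the 50-base stretches of Psme2, 28.3% also occur in other genes, chiefly Psme2b, so its level is uncertain.

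Tap1 was at 4.38, 8.35 and 4.49 CPM in mutants and at 5.11, 6.30 and 7.98 CPM in controls. Mutant 2 was the highest library and mutants 1 and 3 the lowest, and the log2 fold change was -0.20 ± 0.28, or -0.56 without mutant 2. B2m was at 79.0, 146 and 72.7 CPM in mutants and at 59.5, 57.9 and 70.9 CPM in controls. All mutants were above all controls, but mutant 3 lay just over control 3. Its log2 fold change was 0.65 ± 0.23, and 0.28 without mutant 2.

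Of the 10 genes, Psmb10 alone was called by edgeR at an adjusted p under 0.05, where 2.06% of the 13017 genes tested were called in either direction, 1.51% lower and 0.545% higher. DESeq2 also called Psmb10 and none of the other 9, and it called 2.58% of all genes it tested. All mutants lay below all controls in 1 of the 10, Psmb10, as in 9.86% of all genes tested, and above them in 1 of the 10, B2m, as in 9.13%. Because the same comparison chose these genes, nothing is read from these counts. The median log2 fold change of all genes tested was 0.00, and it was 0.17 with library totals alone. Under that scaling Psmb10 was at -2.86. Over the 13 alternatives run, its log2 fold change lay between -3.25 and -2.86.

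Genes whose values ran most like those of Psmb10 over the 6 libraries were found by Pearson's r of log2 CPM among 10035 genes with a mean of at least 5 CPM. The 5 closest were Gstt2, a glutathione transferase gene (r = 0.999), Dtx4, a ubiquitin ligase gene (0.998), Reg3d, a secreted lectin gene (0.996), Bpgm, a mutase gene of the glycolytic side path (0.994), and Mat2a, which makes S-adenosylmethionine (0.994). All 5 separated the groups, with log2 fold changes of -0.74, -0.38, -2.11, -1.08 and -0.62 in that order. Such an r mostly records the gap between groups, and the 6 points share depth and scaling. None of the other inducible or antigen processing genes was among them. Among the genes closest to Psmb7 were Nap1l4 (0.991) and Ppm1g (0.984), with log2 fold changes of -0.07 and -0.14.

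Psmb10 lies beside Ctrl, the gene with the lowest log2 fold change of all genes tested. Psmb10 (ENSMUSG00000031897.9) lies on chromosome 8, bases 105935735 to 105938444 of GRCm38, minus strand, and Ctrl, a chymotrypsin-like protease gene of acinar cells, lies 1872 bases beyond its 3′ end at 105932003 to 105933862 on the same strand. Ctrl was at 6.95, 2.32 and 2.00 CPM in mutants and at 16352, 9507 and 13774 CPM in controls. Its log2 fold change was -11.76 ± 0.54 (SE, n = 3 per group; edgeR adjusted p = 4.43e-06). Within each group the libraries did not rank alike: control 1 was highest in both genes, but control 2 was lowest in Ctrl while control 3 was lowest in Psmb10. In counts, mutants had 102, 123 and 88 of Psmb10 and 73, 20 and 20 of Ctrl, against 677, 770 and 833 of Psmb10 and 108748, 86046 and 143311 of Ctrl in controls. For every 100 counts of Ctrl there were 139.7, 615 and 440 counts of Psmb10 in mutants 1 to 3 and 0.623, 0.895 and 0.581 in controls 1 to 3. The control mean exceeded the mutant mean by 78.1 CPM for Psmb10 and by 13207 CPM for Ctrl, and the gap of Psmb10 was 0.591% of that of Ctrl. Whether transcripts that run across both genes add to either count was not tested.

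No other tested gene around Psmb10 was called. Within 100 kb, 13 annotated genes were in the count tables and 8 passed the filter. Of the 8, Ctrl was the 1 called lower and 0 were called higher by edgeR (1.51% of all genes tested were called lower). At an unadjusted p under 0.05 in edgeR were 2 of the 8, as were 12.8% of all genes tested. These were Ctrl and Thap11, on the opposite strand (-0.27 ± 0.12, edgeR adjusted p = 0.364). Slc12a4, a potassium chloride cotransporter gene on the same strand, has its 3′ end 5145 bases beyond the 5′ side of Psmb10. It was at 15.2, 13.8 and 10.7 CPM in mutants and 10.1, 15.1 and 13.4 CPM in controls (log2 fold change 0.03 ± 0.18, edgeR adjusted p = 0.974). Pskh1, a kinase gene on the opposite strand just past Ctrl, had -0.24 ± 0.12 (edgeR adjusted p = 0.470). Lcat, which lies 1106 bases from Psmb10 on the 5′ side and encodes a cholesterol esterifying enzyme, had 6, 6 and 7 counts in mutants and 4, 8 and 7 in controls, too few to be tested. Annotated on the opposite strand, Gm16156 overlaps the Psmb10 gene body without sharing exon bases with it, and it was not analysed here.

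**Figure D3:**
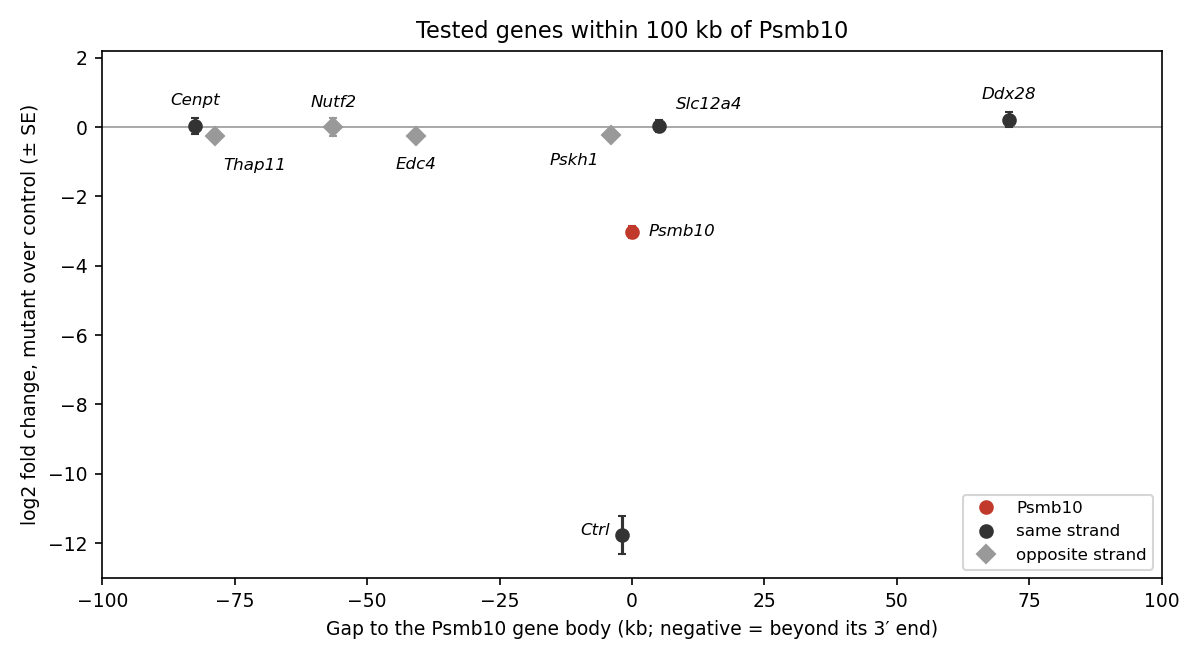
log2 fold change (mutant over control, ± SE) of Psmb10 and the 8 tested genes within 100 kb, against the gap to the Psmb10 gene body in kilobases, negative beyond its 3′ end; circles are genes on the same strand and diamonds genes on the opposite strand. Psmb10 at -3.03 and Ctrl at -11.76 lie apart from the other 7 genes, which lie between -0.27 and 0.21.

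Around the other 9 genes no neighbour was called. Over all 10 genes, 67 neighbours within 100 kb were in the tables and 40 were tested, with Ctrl as the 1 called gene and a median log2 fold change of -0.05. An unadjusted p under 0.05 in edgeR was found for 6 of the 40, and for 12.8% of all genes tested. Psmb9, Tap1 and Psmb8 lie side by side in the MHC region of chromosome 17, within bases 34181987 to 34201454 of GRCm38. Psmb9 and Tap1 start head to head and share 212 exon bases, so that reads there cannot be told apart without a stated strand setting. The nearest tested genes on either side were H2-DMb1, for a chaperone chain of class II loading (log2 fold change -0.12 ± 0.51), and Tap2, the partner of Tap1 (0.05 ± 0.21). Psme1 (bases 55578123 to 55581529) and Psme2 (55587441 to 55591113) share a neighbourhood on chromosome 14, between Dcaf11 (-0.08 ± 0.09) and Rnf31, a ubiquitin ligase gene (-0.16 ± 0.19). Psmb5 lies on the same chromosome at 54614119 to 54618022, between 4931414P19Rik (-0.13 ± 0.31) and Cdh24, a cadherin gene (-0.39 ± 0.40). Psmb6 on chromosome 11 (70525367 to 70527858) lies between the chemokine gene Cxcl16 (0.20 ± 0.36) and the phospholipase gene Pld2 (0.28 ± 0.18). B2m on chromosome 2 (122147686 to 122153083) lies between Spg11 (0.09 ± 0.17) and Sord, a sorbitol dehydrogenase gene (-0.37 ± 0.18). Psmb7, also on chromosome 2 (38588036 to 38644087), overlaps Nek6, a mitotic kinase gene on the other strand (-0.43 ± 0.11, edgeR adjusted p = 0.0893), with which it shares 405 exon bases counted together with 2 smaller genes, and its nearest tested gene beyond that was Nr6a1 (0.19 ± 0.22).

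No other proteasome gene was called. Of 12 genes of the 20S core without a catalytic site, 11 were tested and 0 were called by edgeR in either direction, with 0 at an unadjusted p under 0.05 and 0 called by DESeq2. Their log2 fold changes lay between -0.16 and 0.17 with a median of -0.08. All 19 matched genes of the 19S regulatory particle, which recognises and unfolds substrates, were tested, and 0 were called by edgeR or DESeq2, with 1 at an unadjusted p under 0.05, Psmd1, a scaffold subunit (0.21 ± 0.09, edgeR adjusted p = 0.349). The range was -0.24 to 0.21 and the median 0.02. Of 16 matched genes for assembly, other activators and regulation, 15 were tested and 0 were called by edgeR or DESeq2, with 0 at an unadjusted p under 0.05. Pomp, the assembly chaperone that favours the immunoproteasome, had -0.06 ± 0.10, and Nfe2l1, the transcription factor that raises constitutive subunits, had 0.16 ± 0.09. Psmb11, the subunit of the thymus proteasome, had 0 counts in all libraries. Psmb10 therefore stood at -3.03 beside 45 tested proteasome genes between -0.24 and 0.55.

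No gene of class I presentation was called, B2m and Tap1 included. Of 23 matched class I heavy chain and class I-like genes, 15 were tested and 0 were called by edgeR or DESeq2. At an unadjusted p under 0.05 in edgeR was 1 of the 15, where 12.8% of all genes tested had one. It was Cd1d2, a class I-like gene with few counts (-1.34 ± 0.54, edgeR adjusted p = 0.328). H2-K1, a classical heavy chain gene, was at 36.3, 93.6 and 54.5 CPM in mutants and at 45.4, 54.1 and 53.1 CPM in controls (log2 fold change 0.26 ± 0.27, edgeR adjusted p = 0.771). H2-D1, the other classical one, was at 39.3, 83.5 and 40.6 CPM in mutants and at 37.1, 42.9 and 46.0 CPM in controls (0.36 ± 0.26, edgeR adjusted p = 0.630). Mutant 2 was the highest library for both, and MHC genes share sequence and vary between haplotypes of an outbred strain, so their counts are uncertain. The median of the 15 was 0.16, and it was -0.02 over the 16 tested without mutant 2. Of 15 genes for peptide trimming, transport and loading, 14 were tested and 0 were called by edgeR or DESeq2, with 1 at an unadjusted p under 0.05, Tapbpl, a peptide editor (0.40 ± 0.17, edgeR adjusted p = 0.346). Their median was 0.04. Tapbp, the tapasin gene, had 0.15 ± 0.16, and Erap1, the trimming peptidase, had 0.25 ± 0.12 (edgeR adjusted p = 0.408). 

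No interferon signalling or interferon-induced gene was called, although most had values above 0. Of 54 genes, 40 were tested and 0 were called by edgeR or DESeq2, and 6 had an unadjusted p under 0.05 (12.8% of all genes tested did). Values above 0 were found in 36 of the 40, against 6629 of the 13017 genes tested, and the median was 0.29, against 0.00 for all genes. Without mutant 2 it was 0.12 over 41 genes. Of those 6, Gbp6 (1.21), Irf7 (0.92), Irgm1 (0.43), Ifngr2 and Irf9 had values above 0 and Rsad2 had one below 0. Rsad2, an antiviral gene, was at 1.62, 3.36 and 2.90 CPM in mutants and at 4.81, 8.07 and 2.79 CPM in controls (-1.0 ± 0.41, edgeR adjusted p = 0.334). Ifngr2, a chain of the interferon gamma receptor, was at 24.2, 31.7 and 23.5 CPM in mutants and at 19.4, 20.3 and 19.8 CPM in controls (0.41 ± 0.13, edgeR adjusted p = 0.204). Irf9, a subunit of the factor that binds the ISRE, was at 13.1, 14.2 and 13.6 CPM in mutants and at 8.42, 11.6 and 10.7 CPM in controls (0.40 ± 0.15, edgeR adjusted p = 0.271). Irf1, an inducer of immunoproteasome genes, had 0.29 ± 0.18, and Ifng itself had 0 counts in all libraries.

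**Figure D4:**
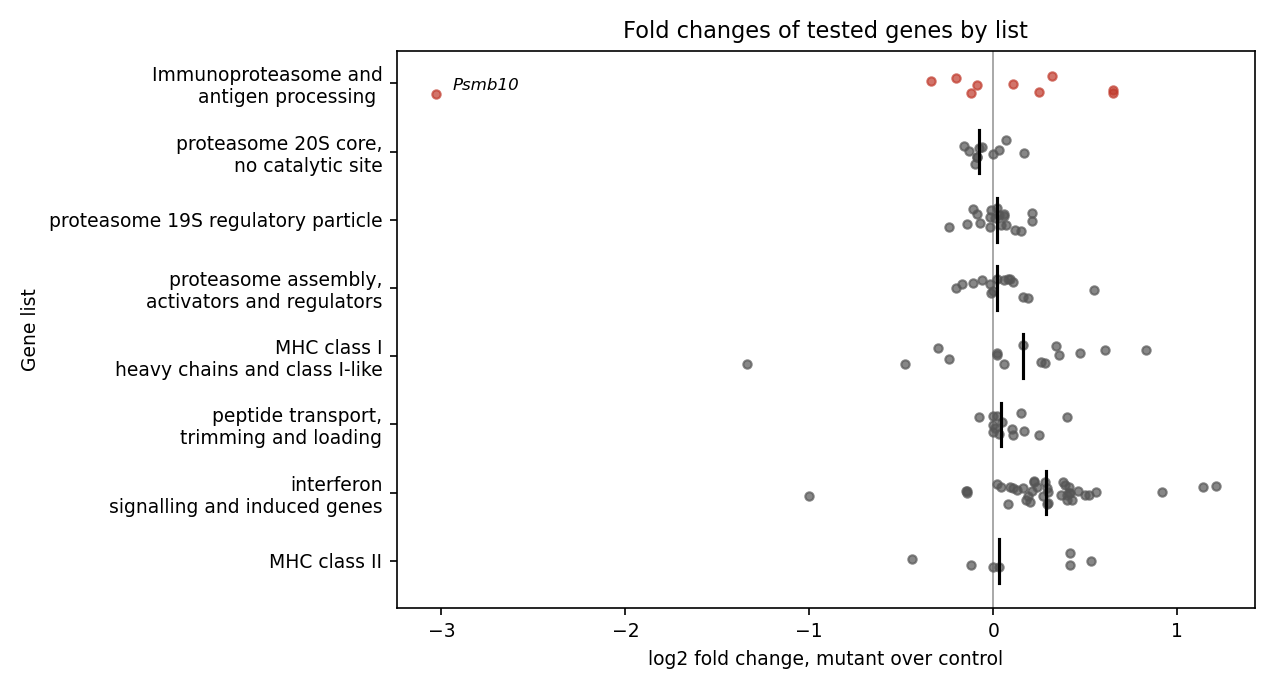
log2 fold change (mutant over control) of each tested gene, by list, with the 10 described genes on top in red and vertical bars at the median of each other list. Psmb10 lies at -3.03, while proteasome genes without a catalytic role lie between -0.24 and 0.55 and the interferon list has a median of 0.29.

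Psmb8, Psmb9, Psme1, Psme2, Tap1 and B2m were highest in the library that was also highest in pan-leukocyte markers. These 6 of the 10 genes had their highest level in mutant 2, as had 21.4% of all genes tested, 30 of 40 interferon genes, 9 of 15 class I genes, 7 of 7 tested class II genes and 7 of 7 pan-leukocyte markers. Class II genes, which antigen-presenting cells express, summed to 42.1, 202 and 20.8 CPM in mutants 1 to 3 and to 28.1, 69.4 and 99.1 CPM in controls 1 to 3. T and NK cell markers, with 11 of 13 matched and 2 tested, summed to 3.33, 58.5 and 2.90 CPM in mutants and to 2.56, 6.85 and 11.8 CPM in controls. B cell markers summed to 1.52, 28.1 and 1.80 CPM in mutants and to 2.26, 13.9 and 13.8 CPM in controls, and dendritic cell markers to 8.28, 26.8 and 6.59 CPM in mutants and to 7.37, 8.84 and 13.0 CPM in controls. None of the matched genes of these 5 lists was at 0 in all libraries. Outside mutant 2 the 6 genes did not all follow the pan-leukocyte sum. That sum was lowest in control 1 and highest in control 3 among controls, as were Psmb8, Psme1 and Tap1, whereas Psme2 was highest in control 1, Psmb9 was highest in control 2 and B2m was lowest in control 2. B2m was also higher in mutants 1 and 3 than in all controls. The pan-leukocyte sum in mutant 3 was below all controls. The sum of macrophage markers was, like B2m, higher in every mutant (290 to 403 CPM) than in every control (241 to 287 CPM). Without mutant 2, edgeR called 2 of the 7 pan-leukocyte markers and 1 of 4 tested B cell markers lower, among 301 of 13174 genes called, while with all libraries it called 0 in both lists. The part of blood cells in the levels of Psmb8, Psmb9, Psme1, Psme2, Tap1 and B2m was not tested.

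Psmb10 was also highest in mutant 2 among mutants, at 14.3 CPM, and among controls it was highest in control 1, as were Psmb5, Psmb6, Psmb7 and Psme2. Without mutant 2 its log2 fold change was -3.25. Macrophage markers, 10 of 11 matched, summed to 328, 403 and 290 CPM in mutants and to 241, 286 and 287 CPM in controls. Of these 10, edgeR called 2 higher (Mrc1 and C1qc) and 1 lower (C1qa), where 0.545% of all genes tested were called higher and 1.51% lower. At an unadjusted p under 0.05 in edgeR were 7 of the 10, as were 12.8% of all genes tested. Log2 fold changes were above 0 in 9 of the 10, with a median of 0.52, or 0.41 without mutant 2. Blood endothelial markers, whose cells also make class I genes, summed to 247 to 271 CPM in mutants and to 242 to 260 CPM in controls, with 0 of 8 called by edgeR or DESeq2 and 0 at an unadjusted p under 0.05. Neutrophil markers summed to 15.3, 20.2 and 12.1 CPM in mutants 1 to 3 and to 34.4, 72.8 and 16.1 CPM in controls 1 to 3. Of the 5 tested, 0 were highest in mutant 2. By edgeR 0 of the 5 were called, with 3 at an unadjusted p under 0.05, and DESeq2 called 1.

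**Figure D5:**
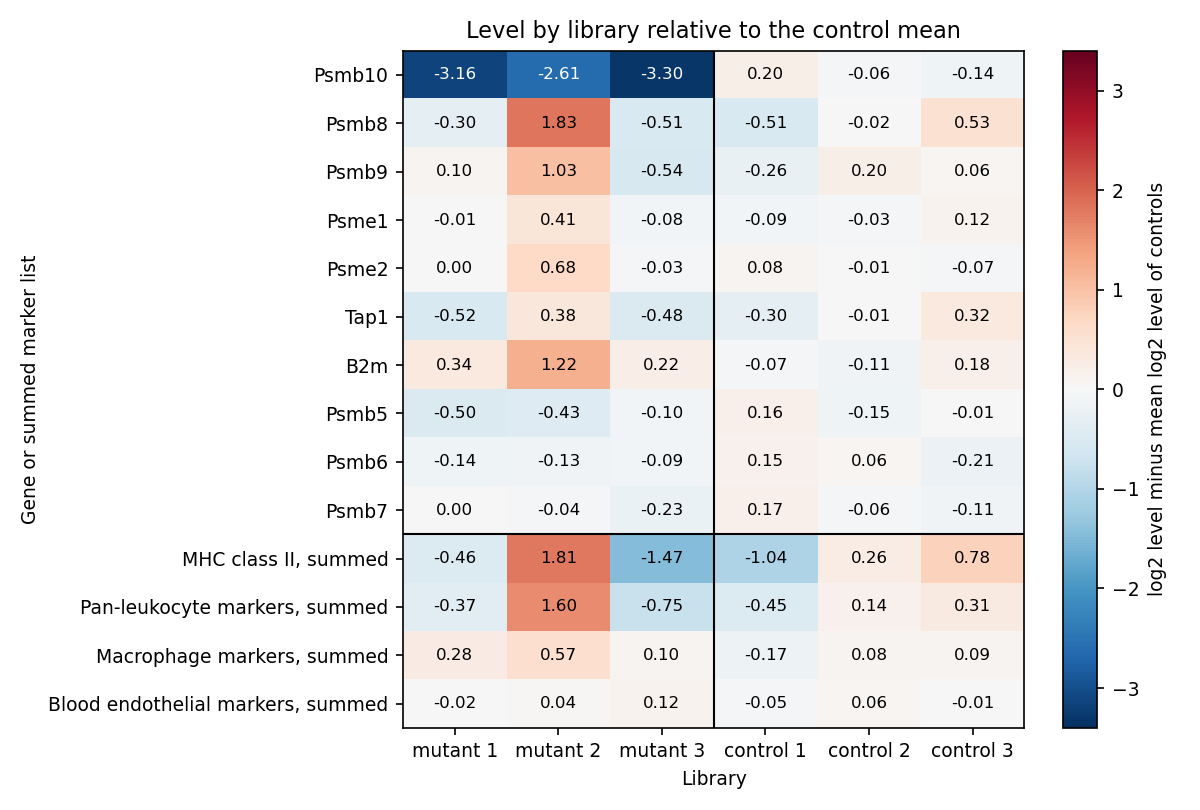
log2 level of each gene (upper rows) and of summed marker lists (lower rows) in each library minus the mean log2 level of the controls, with mutants on the left and controls on the right. Mutant 2 is at 1.83 for Psmb8, 1.22 for B2m and 1.60 for pan-leukocyte markers, while Psmb10 is at -3.16, -2.61 and -3.30 in the 3 mutants.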

How the data were processed

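RNA was sequenced from whole pancreas in 3 mutant and 3 control libraries. The authors deposited 1 table of raw counts per library, by gene symbol, without a row for reads that matched no gene. The build mm10 and the tools HTSeq 0.6.1p1, STAR, cutadapt 1.13 and DESeq2 are named, with no stated role, per the submitters' processing notes. Strand setting, annotation and handling of multiply matching reads: not given in the sources used here.

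Under R 4.3.3, edgeR 4.0.16 (quasi-likelihood F-test, TMM factors, default filterByExpr) compared mutant with control, with Benjamini-Hochberg adjustment over all 13017 genes tested. DESeq2 1.42.0 was an alternative. CPM used TMM-scaled library sizes; log2 CPM had a prior count of 2. SE is the absolute log2 fold change over the square root of F. The code was tested on simulated data. Coordinates, lengths and neighbours came from GENCODE M21 on GRCm38. Replicates differed beyond sampling noise, with a chi-square per degree of freedom of 5.83 to 20.5.

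The 10 genes, the lists and the alternatives were chosen with earlier results of these data known. Named besides the 10 genes were Prox1, up to 4 called genes of each list with the smallest adjusted p, the nearest tested neighbour on each side, and the genes most like Psmb10 and Psmb7; other genes were named after their values were seen. Some genes that this rule names are not reported here.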

Additional observations from a re-analysis of the deposited data

How the results depend on the processing

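The log2 fold change of Psmb10 lay between -3.25 and -2.86 under the 13 alternatives. It is given as a description, since the same comparison chose the 10 genes. Every pathway list stayed at 0 called genes, and Ctrl was the 1 called neighbour, in each of the 13. The stricter filter, at least 5 CPM in at least 3 libraries, removed Psmb8 and Psmb9. Leaving out 1 library gave Psmb10 values between -3.25 and -2.90, and mutant minus control differences between -3.14 and -2.84 for the log2 ratio of Psmb10 to Psmb7, between -0.12 and 1.26 for Psmb8 to Psmb5 and between -0.13 and 0.73 for Psmb9 to Psmb6. The count of all called genes lay between 125 and 301 when 1 library was left out. It was 139, 301 and 178 without mutants 1, 2 and 3 in turn, and 193, 125 and 140 without controls 1, 2 and 3. It was 268 in the analysis as reported, 336 with DESeq2 and 320 with library totals alone, where the share called higher was 59.4% instead of 26.5%. The cause of these moves was not tested. With the replicate number as a block, 241 genes were called; same-numbered libraries had correlated deviations of 0.08, 0.03 and -0.07, and 3 of 6 libraries correlated best with their own number, so the numbers were not taken to pair the samples. Changing the length to all annotated exon bases, an alternative chosen after seeing the data, left the differences in log2 ratio as they were, since length cancels. It does not cancel in the shares within pairs, the summed levels or the order of genes, which depend on the length chosen. All annotated exon bases numbered 1705 for Psmb10 and 3421 for Psmb7, against 1311 and 1160 in the longest coding transcript. Depth limits Psmb9 and Psmb8 most, at 14 to 47 and 18 to 125 counts per library.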
